A study of Mus musculus with 6 samples.

Results

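Homologous recombination and Fanconi anemia genes were examined by RNA-seq in cells sorted from the subventricular zone of mice with both or 1 copy altered of the genes for the activator transcription factors E2F1 and E2F3. The 39 genes were chosen by symbol, from the members of the recombination, crosslink repair and associated checkpoint machinery, and all 39 were found among the 55487 rows of the table. Knockout mice were E2F1(-/-);E2F3(F/F), and heterozygous mice were E2F1(+/-);E2F3(F/+), where F is a floxed allele, intact until Cre acts. Both genotypes carried NestinCreERT2, a tamoxifen-inducible Cre driven by the Nestin promoter of neural stem cells, and a R26;EYFP reporter, on a mixed C57BL/6;Sv/129;FVB/N background. Mice were 6 to 10 weeks old at the start, received tamoxifen at 200 mg/kg per day for 5 days, and were taken 10 days after the last dose. Each of the 3 libraries per genotype came from YFP-positive cells pooled over several mice, at least 200000 cells per sample, and errors describe the variation from pool to pool. Both E2F genes differ between the genotypes, so their effects cannot be told apart, and a heterozygous library is not a wild type.

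Homologous recombination repairs broken DNA by copying the sister chromatid, and so works in S and G2 phase. Ends are first resected to single strands, BRCA1, PALB2 and BRCA2 prepare these strands for the search of the sister chromatid, and helicases and nucleases resolve the joined molecules. The Fanconi anemia proteins act on DNA crosslinks, where a core ubiquitin ligase complex marks FANCD2 and FANCI, and later steps hand over to recombination. Many of these genes are known E2F targets in other cells, and in the subventricular zone cycling cells are activated stem cells, transit-amplifying progenitors and dividing neuroblasts.

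Depth was 19798675 to 25982361 reads assigned to genes per library. E2f1 had 375, 483 and 516 normalized reads in knockout libraries A, B and C, against 1152, 1388 and 1030 in heterozygous libraries A, B and C, a log2 difference of -1.38 ± 0.22 (SE, limma adjusted p = 0.00559). E2f3 had 324, 231 and 245 normalized reads in knockout and 293, 205 and 253 in heterozygous libraries (adjusted p = 0.845). A whole-gene count does not show whether the floxed part was lost, so the E2f3 value does not check recombination. The E2f1 decrease does not by itself check the genotype. Reads of E2f1 remained in knockout, and 20 replication genes had a median log2 difference of -1.48. Markers of the neurogenic lineage were present. All 12 neuroblast, 12 quiescent stem cell and astrocyte and 10 activated stem cell markers passed the filter on low values. So did all the ependymal, endothelial, microglial and oligodendrocyte lineage markers below, so passing it does not tell which cells were sorted. Of the quiescent and astrocyte markers 3 rose, and of the activated stem cell markers 4 fell. Markers of other cells were present too. Summed normalized reads of 10 ependymal markers were 14516 to 64657 in knockout libraries and 9943 to 11920 in heterozygous libraries, and 8 of the 10 rose. Sums of 8 endothelial markers were 3213 to 26934 in knockout and 4066 to 4843 in heterozygous libraries, and those of 8 microglial markers 3816 to 12620 in knockout and 2577 to 8834 in heterozygous libraries. Sums of 8 oligodendrocyte lineage markers were 70617 to 87256 in knockout and 45034 to 64499 in heterozygous libraries, which did not overlap. Their median log2 difference was 0.56, and all 8 differences were positive. Median log2 differences were 1.64 for the ependymal, 1.07 for the endothelial and 0.15 for the microglial markers, with 0, 0 and 1 negative differences. For the quiescent and astrocyte markers the median was 0.73, with 1 negative difference. None of these endothelial, microglial or oligodendrocyte lineage markers was called, and of 8 mature neuron markers 4 fell, 2 rose and 2 were under the filter. Knockout A was the highest library for the ependymal, endothelial and microglial sums. The part of these other cells in the members' results was not tested.

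Of the 39 recombination and Fanconi genes 13 were lower in knockout cells and none was higher. The 13 were Brip1, Rad51ap1, Eme1, Polq, Rbbp8, Exo1, Blm, Rmi2, Fanca, Rad54l, Brca1, Rad54b and Fancg, with decreases of 1.83-fold to 6.41-fold. All 39 genes passed the filter of a mean of at least 10 normalized reads. The 13 make up 33.3% of the members, beside 8.59% of all 18227 genes tested that were called lower and 7.23% that were called higher (limma on log2(normalized reads + 1), Benjamini-Hochberg adjusted p under 0.05). The median log2 difference was -0.74 over the members (quartiles -1.53 and -0.23) and 0.05 over all genes tested. All 3 knockout libraries lay below all 3 heterozygous libraries for 22 members, or 56.4%, beside 20.2% of all genes tested, and above them for none, beside 18.5%. At an unadjusted p under 0.05 limma found 22 members lower and none higher. The share of all genes at that threshold was not counted. edgeR, DESeq2 and the authors' deposited table called 0 members higher. edgeR on the recovered reads called the same 13 members lower, beside 8.25% of all genes lower and 7.78% higher. DESeq2 called 16 lower, these 13 with Bard1, Fancd2 and Palb2, beside 9.63% of 21805 genes lower and 10.4% higher. Lower members numbered 18 in the authors' deposited table, beside 6.83% of 31628 genes lower and 7.44% higher. The added ones were Bard1, Chek1, Fancd2, Mre11a and Palb2. The DESeq2 and deposited shares include genes under the limma filter, which every member passed, so they are not like the limma shares. The deposited adjusted p-values came with a weight per gene and were not plain Benjamini-Hochberg values. DESeq2 on the recovered reads gave Chek1 and Mre11a the same log2 fold changes, with adjusted p = 0.0535 and 0.0574. A decrease of at least 2-fold was met by 12 of the 13, beside 6.24% of all genes. Without knockout B, heterozygous A or heterozygous B the numbers that fell were 5, 5 and 2, whereas the number of all genes called was 701, 902 and 636, against 2883 with every library. Rad51ap1 and Rbbp8 passed whichever library was left out, and all 13 kept a negative difference.

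**Figure D1:**
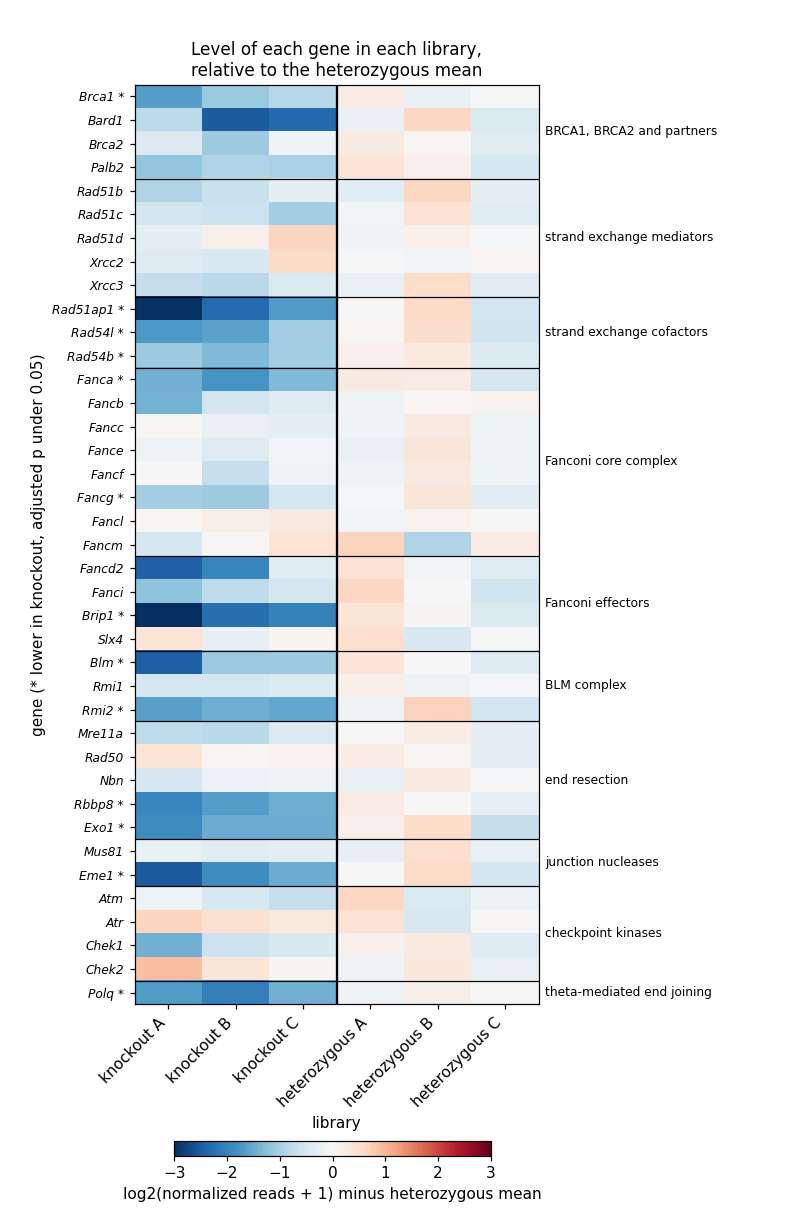
Level of the 39 genes in each library, as log2(normalized reads + 1) minus the mean of the 3 heterozygous libraries, with genes in rows by role and libraries in columns, knockout on the left. Blue is lower and red is higher, and the 13 genes with an asterisk were lower in knockout cells at an adjusted p under 0.05. Rad51ap1 and Brip1 are the darkest. Atr, Chek2, Fancl and Rad50 are at or above the heterozygous mean in the 3 knockout columns.

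Promoters of the members were read from RefSeq windows of GRCm38.p6 that run from 250 bases before to 50 bases after a gene's start. Windows were found for 30 of the 39 members. They were searched on both strands for a strict E2F consensus, spelled TTTCCCGC, TTTCGCGC, TTTGCCGC or TTTGGCGC, for the CHR element TTTGAA or TTCGAA, and for CCAAT. An E2F word was found in 6 of the 30 members, which is 20% of them, beside 4.33% of 12507 tested genes with a window and 2.60% of all 27025 genes in the table. Only 1 of the 9 members with a window that fell held one, Fancg, against 5 of the 21 that were not called, namely Bard1, Brca2, Chek2, Rad51c and Rmi1. The CCAAT box was found in 6 of the 9 that fell and 13 of the 21 not called, beside 42.4% of tested genes, and the CHR element in 2 of the 9 and 3 of the 21, beside 16.7%. No match of 1 motif overlapped a match of another in the windows of the members. A match describes the letters of the window and is not evidence of binding. Only exact words were searched, so a window without one may still hold an E2F site of another spelling.

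The windows of Fancg, which fell, and of Bard1, Brca2 and Chek2, which did not pass the threshold, are shown because they hold the same E2F word in their only window. They lie at chr4:43010252-43010551 (minus strand), chr1:71102923-71103222 (minus), chr5:150522371-150522670 (plus) and chr5:110839733-110840032 (plus) in that order. Each is written 5′ to 3′ along the gene, with the match in capitals, which is on the reverse strand for Brca2 and Chek2.
Fancg: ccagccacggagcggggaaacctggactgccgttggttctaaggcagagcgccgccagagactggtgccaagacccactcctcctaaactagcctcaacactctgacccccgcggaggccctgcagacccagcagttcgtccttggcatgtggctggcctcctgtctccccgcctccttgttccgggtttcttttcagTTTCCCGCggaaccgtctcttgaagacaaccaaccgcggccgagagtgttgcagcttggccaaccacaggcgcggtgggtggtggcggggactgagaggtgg
Bard1: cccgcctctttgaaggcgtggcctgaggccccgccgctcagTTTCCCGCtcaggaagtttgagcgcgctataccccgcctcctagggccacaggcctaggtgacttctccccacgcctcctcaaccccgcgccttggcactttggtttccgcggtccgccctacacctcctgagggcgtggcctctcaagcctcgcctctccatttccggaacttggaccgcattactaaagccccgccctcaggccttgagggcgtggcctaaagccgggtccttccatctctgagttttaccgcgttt
Brca2: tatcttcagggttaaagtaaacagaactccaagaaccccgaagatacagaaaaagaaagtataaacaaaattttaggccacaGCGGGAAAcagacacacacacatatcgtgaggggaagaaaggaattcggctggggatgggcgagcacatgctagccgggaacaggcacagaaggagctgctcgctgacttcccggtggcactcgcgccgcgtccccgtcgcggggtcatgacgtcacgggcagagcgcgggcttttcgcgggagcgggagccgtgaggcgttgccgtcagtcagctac
Chek2: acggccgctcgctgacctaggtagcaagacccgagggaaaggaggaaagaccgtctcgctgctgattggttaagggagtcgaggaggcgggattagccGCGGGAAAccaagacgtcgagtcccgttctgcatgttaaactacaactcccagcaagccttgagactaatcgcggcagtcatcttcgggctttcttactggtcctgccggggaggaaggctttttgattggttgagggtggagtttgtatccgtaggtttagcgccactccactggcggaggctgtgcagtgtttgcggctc
In Fancg the match began 52 bases before the start, and it began 209 bases before it in Bard1, 168 in Brca2 and 152 in Chek2. Rad51c, which was not called, had 2 windows and held this word in 1 of them, 5 bases before the start, on the reverse strand.

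For contrast, the windows of the members with the largest decreases, Brip1 and Rad51ap1, picked after their values were seen, held no word of the strict E2F list but did hold CCAAT boxes, all on the reverse strand and shown in capitals. Other spellings of an E2F site were not searched in them. They lie at chr11:86201144-86201443 and chr6:126939538-126939837, both on the minus strand.
Brip1: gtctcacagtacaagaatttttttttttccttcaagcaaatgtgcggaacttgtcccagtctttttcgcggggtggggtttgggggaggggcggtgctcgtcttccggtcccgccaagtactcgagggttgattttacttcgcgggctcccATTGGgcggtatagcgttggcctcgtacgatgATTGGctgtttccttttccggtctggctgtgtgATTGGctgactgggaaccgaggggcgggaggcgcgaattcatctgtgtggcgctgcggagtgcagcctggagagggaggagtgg
Rad51ap1: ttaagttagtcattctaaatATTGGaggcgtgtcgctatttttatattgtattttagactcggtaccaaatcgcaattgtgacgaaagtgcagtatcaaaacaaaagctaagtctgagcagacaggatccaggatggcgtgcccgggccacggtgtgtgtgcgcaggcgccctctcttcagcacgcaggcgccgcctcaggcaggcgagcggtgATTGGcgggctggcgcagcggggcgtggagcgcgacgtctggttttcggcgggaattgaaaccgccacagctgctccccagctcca
The boxes of Brip1 began 99, 67 and 34 bases before the start, and those of Rad51ap1 230 and 36 bases before it.

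Among BRCA1, BRCA2 and their partners only Brca1 passed the limma test. Brca1 (ENSMUSG00000017146, GRCm38 chromosome 11, 101488764 to 101551955, minus strand), whose product directs resection, had 202, 292 and 353 normalized reads in knockout libraries A, B and C, against 754, 556 and 613 in heterozygous libraries A, B and C. The genotypes did not overlap, and knockout A was the lowest library. The log2 difference was -1.20 ± 0.27 (SE, limma adjusted p = 0.0210). Palb2, the bridge between BRCA1 and BRCA2, had 131, 160 and 151 normalized reads in knockout and 391, 330 and 206 in heterozygous libraries. Its groups did not overlap either, but the log2 difference of -1.02 ± 0.32 missed the threshold in limma (adjusted p = 0.0568). Bard1, the RING partner of BRCA1, was the least expressed member and stood at 49.4, 14.2 and 16.2 normalized reads in knockout, against 74.7, 131 and 63.0 in heterozygous libraries. Its estimate was large and uncertain, -1.87 with a 95% confidence interval of -3.19 to -0.55 (limma adjusted p = 0.0584). DESeq2 called both Palb2 and Bard1 lower (DESeq2 adjusted p = 0.0134 and 0.0267). Brca2, which acts on the resected strands, had 335 ± 103 normalized reads in knockout and 478 ± 96.5 in heterozygous libraries (SD, n = 3 each), and its groups overlapped (95% confidence interval of the log2 difference -1.22 to 0.13). Brca1 was not called without knockout B (limma adjusted p = 0.0768), heterozygous A (0.0852) or heterozygous B (0.0659), whereas Palb2 was called without heterozygous C (0.0379) and Bard1 without knockout A (0.0244).

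The strand exchange mediators Rad51b, Rad51c, Rad51d, Xrcc2 and Xrcc3 held no call among 5 genes, and 4 of the 5 had a negative difference. At an unadjusted p under 0.05 limma found Rad51c and Xrcc3 lower, and edgeR, DESeq2 and the authors' deposited table called 0 of the 5 in either direction. Rad51c had 234, 218 and 167 normalized reads in knockout libraries, against 324, 464 and 266 in heterozygous libraries. Xrcc3 had 351, 332 and 437 normalized reads in knockout and 496, 854 and 462 in heterozygous libraries. Neither gene overlapped between genotypes, and heterozygous B was the highest library in both (log2 differences of -0.74 ± 0.30 and -0.65 ± 0.29, adjusted p = 0.118 and 0.146). Rad51b, Rad51d and Xrcc2 overlapped between genotypes. Rad51d and Xrcc2 were highest in knockout C, at 1013 and 825 normalized reads, and the sign of their differences of 0.17 and -0.09 changed when single libraries were left out.

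The 3 cofactors of strand exchange all fell. Rad51ap1 (ENSMUSG00000030346, chromosome 6, 126923050 to 126939587, minus strand), which stimulates the forming of joint molecules, had 169, 269 and 406 normalized reads in knockout libraries A, B and C, against 1347, 1962 and 885 in heterozygous libraries A, B and C. The highest knockout library held less than every heterozygous library, and the gene fell 5.01-fold (log2 difference -2.32 ± 0.37, limma adjusted p = 0.00557). Rad54l, a motor protein that acts in strand exchange, had 681, 739 and 1093 normalized reads in knockout and 2334, 3243 and 1487 in heterozygous libraries. Its relative Rad54b had 410, 348 and 427 normalized reads in knockout and 967, 1069 and 651 in heterozygous libraries. Groups were separate for both, with heterozygous C nearest to the knockout libraries, and the decreases were 2.73-fold and 2.22-fold (adjusted p = 0.0157 and 0.0174). Reads of Rad54l and Rad54b are less certain, because 15.4% of the exon bases of Rad54l also lie in exons of Lrrc41 and 35.8% of those of Rad54b in exons of Fsbp. Neither was called without knockout B (adjusted p = 0.0675 and 0.0854), heterozygous A (0.0653 and 0.0738) or heterozygous B (0.0736 and 0.0771).

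**Figure D2:**
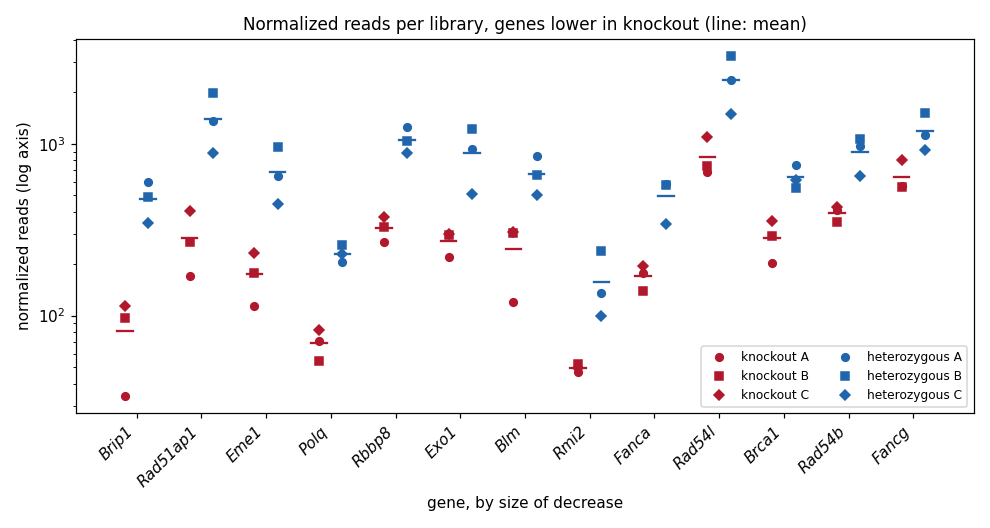
Normalized reads (log axis) in each library for the 13 genes that were lower in knockout cells, ordered by the size of the decrease, with knockout libraries in red on the left and heterozygous libraries in blue on the right of each gene, and a line at each mean of 3 libraries. No knockout point reaches the lowest heterozygous point of its gene, and knockout C is the highest knockout library for 12 of the 13.

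In the Fanconi core complex 2 of 8 genes fell, the subunit genes Fanca and Fancg. Fanca had 178, 140 and 193 normalized reads in knockout libraries, against 580, 577 and 340 in heterozygous libraries. Fancg had 569, 557 and 805 normalized reads in knockout and 1127, 1499 and 923 in heterozygous libraries. Both were separate between genotypes, but the gap between knockout C and heterozygous C was small for Fancg. Fanca fell 2.86-fold (log2 difference -1.52 ± 0.30, limma adjusted p = 0.0135) and Fancg 1.83-fold (-0.87 ± 0.25, adjusted p = 0.0442). Exons of Zfp276 hold 10.5% of the exon bases of Fanca, those of Gas2 15% of Fancf and those of Vrk2 13.7% of Fancl. The other six, Fancb, Fancc, Fance, Fancf, the ubiquitin ligase gene Fancl and the translocase gene Fancm, had log2 differences between -0.79 for Fancb and 0.17 for Fancl, and only Fancb had groups that did not overlap. For Fancl the 95% confidence interval was -0.29 to 0.63, with a lower bound above the estimate for Fanca, while for Fancm it was -0.96 to 0.93. Fanca was not called without knockout B (0.0660), heterozygous A (0.0642) or heterozygous B (0.0697), and Fancg was not called without any of these (adjusted p of 0.111 to 0.169) or without knockout A (0.0912).

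Downstream of the core complex Brip1, a helicase gene also called FANCJ whose product binds BRCA1, had the largest decrease of the 39. Brip1 (ENSMUSG00000034329, chromosome 11, 86058138 to 86201193, minus strand) had 34.0, 97.1 and 113 normalized reads in knockout libraries A, B and C, against 600, 492 and 348 in heterozygous libraries A, B and C. The groups were far apart, and the decrease was 6.41-fold (log2 difference -2.68 ± 0.46, limma adjusted p = 0.00775). Without heterozygous B its adjusted p was 0.0586. Fancd2, the substrate of the core complex, had 139, 192 and 582 normalized reads in knockout and 1014, 709 and 585 in heterozygous libraries. Knockout C stood next to heterozygous C, the groups did not overlap, and the log2 difference of -1.58 ± 0.48 missed the threshold in limma (adjusted p = 0.0520). DESeq2 called Fancd2 lower (DESeq2 adjusted p = 0.0217). Without knockout C the limma adjusted p of Fancd2 was 0.000667. Its partner Fanci had 261 ± 60.4 normalized reads in knockout and 484 ± 200 in heterozygous libraries, with groups that overlapped (adjusted p = 0.124), and it shares 16.0% of its exon bases with Polg. The scaffold gene Slx4 had 385 ± 85.8 normalized reads in knockout and 373 ± 127 in heterozygous libraries (SD, n = 3 each, log2 difference 0.08, 95% confidence interval -0.62 to 0.77).

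The BLM complex dissolves joint molecules, and 2 of its 3 genes fell. The helicase gene Blm had 120, 304 and 308 normalized reads in knockout libraries, against 853, 657 and 503 in heterozygous libraries. Rmi2, which encodes an accessory subunit, had 47.2, 52.5 and 49.6 normalized reads in knockout and 135, 237 and 99.0 in heterozygous libraries. The groups were separate for both genes, and the decreases were alike in size, with log2 differences of -1.55 ± 0.39 and -1.55 ± 0.42 (limma adjusted p = 0.0292 and 0.0365). Rmi1, the other accessory subunit, had 429 ± 20.8 normalized reads in knockout and 605 ± 71.7 in heterozygous libraries, separate groups and a smaller difference (-0.49 ± 0.21, adjusted p = 0.142). Blm was not called without knockout B (0.0572), heterozygous A (0.110) or heterozygous B (0.114), nor Rmi2 without any of these (0.0972 to 0.129) or without knockout A (0.0622).

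In end resection 2 of 5 genes fell, and the subunits of the MRE11 complex did not pass. Rbbp8 encodes CtIP, which starts resection together with that complex, and had 269, 329 and 375 normalized reads in knockout libraries A, B and C, against 1245, 1037 and 882 in heterozygous libraries A, B and C. Exo1, the nuclease for long resection, had 219, 296 and 297 normalized reads in knockout and 930, 1213 and 508 in heterozygous libraries. Both were separate between genotypes. Rbbp8 fell 3.24-fold with the smaller error (log2 difference -1.70 ± 0.23, limma adjusted p = 0.00292), and Exo1 fell 3.09-fold (-1.63 ± 0.33, adjusted p = 0.0144). Exo1 was not called without heterozygous A (0.0652) or heterozygous B (0.0709). Mre11a had 407, 394 and 510 normalized reads in knockout and 702, 803 and 574 in heterozygous libraries, a log2 difference of -0.66 ± 0.23 (adjusted p = 0.0786). Its partners Rad50 and Nbn, which overlapped between genotypes, had log2 differences of 0.19 (95% confidence interval -0.31 to 0.68) and -0.27 (-0.76 to 0.22).

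Of the nuclease pair that cuts joint molecules, the gene of the regulatory subunit fell and that of the catalytic subunit did not pass. Eme1 had 114, 177 and 233 normalized reads in knockout libraries, against 646, 959 and 445 in heterozygous libraries. Mus81 had 1271, 1153 and 1198 normalized reads in knockout and 1223, 2014 and 1242 in heterozygous libraries. Eme1 was separate between genotypes and fell 3.87-fold (log2 difference -1.95 ± 0.36, limma adjusted p = 0.0103), with an adjusted p of 0.0613 without heterozygous B. For Mus81 the groups overlapped, with heterozygous B alone above the rest (-0.27, 95% confidence interval -0.78 to 0.25, adjusted p = 0.441). The 95% confidence intervals of the 2 genes, -2.76 to -1.14 for Eme1 and that of Mus81, did not overlap, but the difference between them was not tested.

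None of the 4 checkpoint kinase genes passed limma, edgeR or DESeq2, and at an unadjusted p under 0.05 only Chek1 was lower in limma. Chek1, the kinase of stalled forks that ATR activates, had 283, 489 and 561 normalized reads in knockout libraries A, B and C, against 835, 923 and 590 in heterozygous libraries A, B and C. The groups did not overlap, though knockout C and heterozygous C were close (log2 difference -0.85 ± 0.30, limma adjusted p = 0.0844). The authors' deposited table gave Chek1 an adjusted p of 0.0429, and limma without knockout C gave 0.0336. Atr had 910, 807 and 721 normalized reads in knockout and 795, 422 and 597 in heterozygous libraries, a log2 difference of 0.47 (95% confidence interval -0.12 to 1.05). Chek2, which acts below ATM at breaks, had 978 ± 291 normalized reads in knockout and 705 ± 140 in heterozygous libraries, and Atm had 289 ± 57.0 in knockout and 409 ± 169 in heterozygous libraries (SD, n = 3 each). All 3 overlapped between genotypes, and Chek2 was highest in knockout A, at 1299 normalized reads, the library with the highest ependymal, endothelial and microglial sums; their part in this value was not tested.

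Polq encodes polymerase theta, which joins resected ends by short homologies as an alternative to recombination. It had 71.3, 54.3 and 83.0 normalized reads in knockout libraries, against 204, 258 and 227 in heterozygous libraries. The groups were well separated, and the gene fell 3.30-fold (log2 difference -1.72 ± 0.33, limma adjusted p = 0.0117). Its adjusted p was 0.0593 without knockout B and 0.0606 without heterozygous B.

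**Figure D3:**
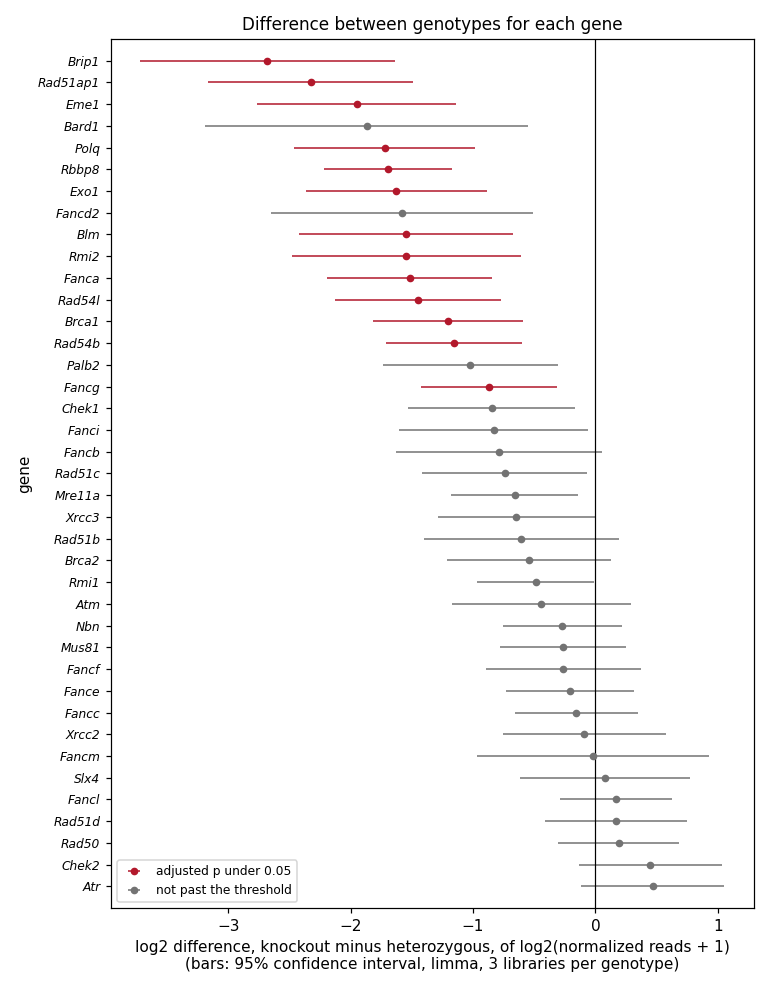
Log2 difference (knockout minus heterozygous) of log2(normalized reads + 1) for the 39 genes, ordered by size, with 95% confidence intervals from limma over 3 libraries per genotype. The 13 genes in red passed an adjusted p of 0.05, from Brip1 at -2.68 to Fancg at -0.87. Among them lie Bard1 and Fancd2, with wider intervals, and Palb2 at -1.02, none of which passed. The upper end is held by Atr at 0.47.

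Levels were compared between genes per kilobase of annotated exon. In knockout libraries normalized reads per kilobase ran from 4.70 for Bard1 to 339 for Mus81, with a median of 50.2, and in heterozygous libraries from 15.8 to 419 for the same genes, with a median of 92.0. Mus81 ranked first in both genotypes. Rad51ap1 ranked 19 of 39 in knockout libraries, against 5 in heterozygous libraries. The next largest shifts this way were those of Rbbp8, which ranked 32 in knockout and 21 in heterozygous libraries, and Eme1, which ranked 17 in knockout and 6 in heterozygous libraries. In the other direction the largest shifts were those of Atr, which ranked 25 in knockout and 37 in heterozygous libraries, Slx4, at 20 in knockout and 31 in heterozygous libraries, Fancc, at 18 in knockout and 26 in heterozygous libraries, and Fancl, at 6 in knockout and 14 in heterozygous libraries, none of which passed the test.

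The rest of the pathway was described with 65 further genes, from crosslink repair to the checkpoint clamp, all of which passed the filter. Of these 14 fell and 1 rose, which is 21.5% lower, beside 8.59% of all genes tested, and the median log2 difference was -0.46. H2ax, the histone variant that is phosphorylated around breaks, had 1517, 1033 and 1519 normalized reads in knockout and 4696, 7611 and 3855 in heterozygous libraries, and fell 3.87-fold (limma adjusted p = 0.00314). Ube2t, the ubiquitin-conjugating enzyme of the core complex, fell 2.89-fold, to 222 ± 32.9 normalized reads in knockout libraries, against 699 ± 379 in heterozygous libraries (SD, n = 3 each). Usp1, which removes the ubiquitin of FANCD2, fell 1.70-fold, and Cenps and Parpbp fell 3.37-fold and 3.78-fold (adjusted p of 0.0178 to 0.0251 for these 4). The gene that rose was Zswim7, part of a complex that supports recombination, with 536, 480 and 555 normalized reads in knockout and 264, 249 and 301 in heterozygous libraries, a 1.93-fold increase (adjusted p = 0.0249). Without knockout B, heterozygous A or heterozygous B the number of these genes that fell was 2, 4 and 1, without knockout A it was 6, and Zswim7 was not called in any of these 4 cases (adjusted p of 0.0519 to 0.0949). H2ax was called whichever library was left out, and Usp1 was called only without knockout C (0.0205). Ube2t, Cenps and Parpbp were not called without knockout B or heterozygous B (0.0645 to 0.109), nor Parpbp without heterozygous A (0.0890).

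Levels of the recombination and Fanconi genes were set beside those of cell cycle genes. Mki67, a marker of cycling cells, had 397, 203 and 395 normalized reads in knockout libraries A, B and C, against 3693, 3763 and 2893 in heterozygous libraries A, B and C, and fell 10.8-fold. A list of 20 mitosis genes fell in all 20 members, with a median log2 difference of -2.73 and summed normalized reads of 7379 to 13876 in knockout libraries, against 44576 to 78479 in heterozygous libraries, and no gene at 0 in a library. Of 20 replication genes 17 fell (median -1.48), with sums of 20639 to 46093 in knockout and 62664 to 108962 in heterozygous libraries. The 12 neuroblast markers all fell, with sums of 14182 to 17982 in knockout and 75706 to 118765 in heterozygous libraries. For the 39 members the sums were 15010, 14875 and 17850 in knockout libraries A, B and C, against 26791, 29646 and 20402 in heterozygous libraries A, B and C. Knockout C was the highest knockout library for 12 of the 13 genes that fell and for the mitosis and replication lists, and heterozygous C was the lowest heterozygous library for 11 of the 13 and for both lists. Each gene's log2 level was correlated with the mean of the mitosis list across the 6 libraries, which fall into the 2 genotypes. As a description only, the correlation was 0.90 to 0.99 for the 13 genes that fell and -0.72 to 0.97 for the other 26. The 13 genes and the mitosis list were both lower in knockout, so this contrast follows in part from how the 13 were picked. Mean log2 levels of the members were lower than those of the mitosis list by less in knockout libraries (differences of -0.27, -0.34 and -0.83) than in heterozygous libraries (-2.35, -2.58 and -2.19), so the mitosis genes differed more between genotypes than these members did on average. In sorted bulk cells a smaller share of cycling cells and less RNA per cycling cell cannot be told apart, and the part of either in the decreases was not tested.

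**Figure D4:**
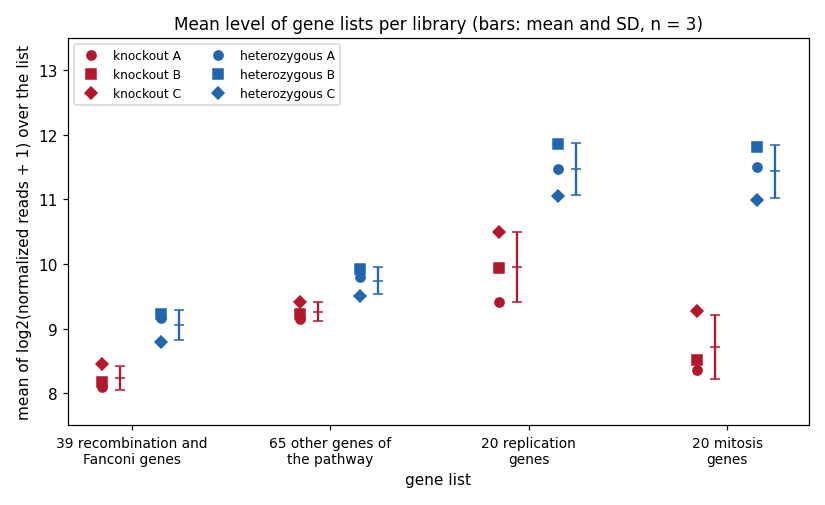
Mean of log2(normalized reads + 1) over 4 gene lists in each library, knockout in red on the left and heterozygous in blue on the right, with bars for the mean and SD of 3 libraries. The 39 recombination and Fanconi genes average 8.23 in knockout and 9.06 in heterozygous libraries, and the 20 mitosis genes 8.72 in knockout and 11.43 in heterozygous libraries; knockout C and heterozygous C lie nearest to the other genotype in every list.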

How the data were processed

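RNA-seq was measured in 6 libraries, 3 per genotype. Per the submitters' processing notes, the tools were HISAT2, Subread featureCounts and DESeq2, and the build was GRCm38. Their versions and strand settings are not given in the sources used here. The deposited values per library are a normalized signal which, from the values themselves, is read counts that the authors divided by 1 size factor per library. Their mean column is a signal too. The authors' log2 fold change with its error, a Wald statistic and a weight (both scores), and p-values were deposited beside them. All values above 0 were whole multiples of 1 step per library (100% within 0.001 reads), so reads and depth could be recovered.

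limma 3.58.1 with a mean-variance trend (R 4.3.3) tested genotype, two-sided and with no other term, on log2(value + 1). Of 55487 rows, 18227 had a mean of 10 or more and entered the fit, and p-values were adjusted over these by Benjamini-Hochberg. Fold changes are on that scale, which understates changes of low genes. edgeR 4.0.16 and DESeq2 1.42.0 on recovered reads, and other pseudocounts, filters, scalings, thresholds, a block for the replicate letter and the omission of single libraries, were alternatives. edgeR on the recovered reads called 2921 genes. On simulated counts with known changes, no true change that limma, edgeR or DESeq2 called had the wrong sign. That run does not measure how the methods perform on these libraries. Libraries of a genotype differed by more than sampling noise (chi-square over degrees of freedom 46.9 or more). Exon lengths, overlaps and coordinates came from GENCODE M21 on GRCm38, and promoters from RefSeq on GRCm38.p6. SMART-Seq v4 and Nextera XT were used for libraries, per the labels' protocols, from at least 35 ng of RNA.

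The members, the lists and the tests were chosen with earlier results of these data known. Values per library are given for each member that passed and, in roles with fewer than 2 such genes, for the 2 with the smallest p. Among the further pathway genes the 6 lower genes with the smallest p, 1 of which is not reported here, and the gene that rose are named. Bard1, Mre11a and the windows of Brip1 and Rad51ap1 were added after their values were seen. Figures were drawn with matplotlib 3.10.9.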

Additional observations from a re-analysis of the deposited data

How the results depend on the processing

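With 3 libraries per genotype, calls depended on the library left out. The number of members that fell was 13 and ranged from 2 to 15 when 1 library was left out. That of the further pathway genes that fell was 14 and ranged from 1 to 19, and 0 or 1 of them rose. All genes called ranged from 636 to 4021, against 2883. The cause was not tested. With an adjusted p under 0.01, 618 genes were called, 3 members fell, and 1 further pathway gene fell and 0 rose. With at least a 2-fold change 12 members fell, and 8 further pathway genes fell and 0 rose. DESeq2 called 4364 genes. There were 4514 in the authors' deposited table, with 22 further pathway genes lower. Under edgeR with TMM, upper-quartile or DESeq2 scaling, median-centred libraries and both other pseudocounts the same 13 members fell, as with a mean of at least 50, and Fancd2 joined them with a pseudocount of 5 and with that filter. All genes called lower were 1647 of 18227 with that pseudocount and 1640 of 14135 with a mean of at least 50. With no filter on low values 11 of the 13 members fell, beside 1360 lower and 1043 higher of all 31667 genes tested.

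No pairing of the libraries by the letters A, B and C was seen. The deviations of same-lettered libraries from their genotype means correlated at -0.07, 0.02 and -0.10, and no library correlated best with its own letter. Whether same-lettered libraries shared a processing step cannot be told from these values. With the letter as a replicate block 12 members fell, 11 of the 13 plus Fancd2, and 8 further pathway genes fell and 0 rose. Of all 18227 genes tested with that block, 1205 were lower and 1105 higher.

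Signs changed only for genes that no setting called. Xrcc2 (-0.09) was at 0.0149 with edgeR's TMM and 0.0653 with its upper-quartile scaling and ranged from -0.43 to 0.0926 without single libraries. In the same way Rad51d ranged from -0.0637 to 0.39, Fancm from -0.47 to 0.31, Slx4 from -0.16 to 0.33 and E2f3 from -0.0581 to 0.21.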
